A study of Mus musculus with 2 samples.

Results

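The genes described are 30 isozymes and steps of glycolysis and gluconeogenesis in embryonic liver, taken from C57BL/6J mice on embryonic day 18. They were chosen by name and role in the pathway, not by their values, though earlier results of these data were known. All 30 were found among the 43346 mouse genes of the tables. Poly(A)+ RNA longer than 200 nt was depleted of ribosomal RNA and sequenced from both ends with strand kept, in 2 libraries that the labels number as biological replicates 2 and 1. The labels give a single group, liver tissue of littermates, with male and female embryos pooled, and no control or second condition. The only comparison the data allow is therefore one library against the other, replicate 2 over replicate 1, and no p-value is given.

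Glycolysis splits glucose into pyruvate and gains ATP and NADH, and gluconeogenesis runs most of the same steps backwards, replacing the irreversible ones with enzymes of its own. Most steps have several isozymes, encoded by different genes or made from one gene by alternative exons, and the liver, red cells and muscle use different sets. The fetal liver is a site of blood formation as well as a developing liver. Its RNA is a mixture of hepatocyte and blood cell transcripts, and in such bulk tissue fewer cells of a type and less RNA per cell cannot be told apart. Not every isozyme of the hexokinase and aldolase steps was analysed here, so the levels below are compared between named genes and not as shares of a whole step.

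The estimated fragments assigned to mouse genes came to 136904873 in replicate 2 and 159127988 in replicate 1. Hepatocyte markers (8 of 8 detected) summed to 138872 and 137028 TPM, and erythroid markers (8 of 8 detected) to 163268 and 165652 TPM, in replicates 2 and 1 in that order, with TPM being transcript abundance per length on a fixed total. The libraries stood apart in other ways. The labels call both sexes pooled, but Xist had 41 fragments in replicate 2 and 157187 in replicate 1, and 4 Y-linked genes together had 18351 in replicate 2 and 8 in replicate 1. All 6 neutrophil markers were higher in replicate 2 (median log2 ratio 0.38), with sums of 12819.5 TPM in replicate 2 and 8879 TPM in replicate 1, and 7 of 8 erythroid markers were lower in replicate 2 (median -0.18). Of the hepatocyte markers 3 were higher and 5 lower in replicate 2 (median -0.02), from 0.13 for Apoa1 to -0.76 for Ttr and -0.99 for Tat. Genes of the pancreatic acinar cell (0 of 6 at 1 TPM in both libraries) summed to 0.74 TPM in replicate 2 and 51.0 TPM in replicate 1, and those of striated muscle (2 of 8) to 8.73 TPM in replicate 2 and 20.6 TPM in replicate 1. Endothelial, macrophage and megakaryocyte markers were detected in full (4 of 4, 6 of 6 and 4 of 4), with median log2 ratios of 0.07, -0.01 and -0.03. Among the macrophage markers 3 were higher and 3 lower, from 0.18 for Lyz2 to -1.05 for Clec4f. Kidney tubule markers were not detected (0 of 4), and 1 of 4 neural and astrocyte markers was. The part of these differences in the results that follow was not tested.

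The sequences shown first are those that tell apart the forms of pyruvate kinase, because estimated transcript shares and reads over splice junctions put the starts of Pklr in opposite orders. Pklr, the pyruvate kinase gene of liver and red cells, lies at chr3:89136142-89146784 on the plus strand of mm10. It has an upstream first exon, used for the red-cell (R) form, and a downstream one 430 bases further on, used for the liver (L) form. The first exon of transcript Pklr-201 spans chr3:89136142-89136282, that of Pklr-202 chr3:89136572-89136637 and that of Pklr-203 chr3:89136579-89136618. All 3 join the same second exon. The junctions are given as the last 15 bases of the first exon in lower case and the first 15 of the second exon in capitals, from the GENCODE M21 transcripts of GRCm38.
Pklr-201, upstream start: gtggggctccaggagGGCCAGCAGGATACC
Pklr-202, downstream start: gcagcagtatggaagGGCCAGCAGGATACC
Pklr-203, downstream start with an earlier splice site: ccacagacacagcagGGCCAGCAGGATACC

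The 250 bases before the upstream start (chr3:89135892-89136141) and the 199 before the downstream start (chr3:89136373-89136571) are shown because the reads favoured the first of the 2 starts. They come from RefSeq's promoter table for GRCm38.p6, plus strand. Capitals mark AGATAA or TGATAA on either strand, forms of the recognition sequence of GATA factors.
Pklr-201, before the upstream start: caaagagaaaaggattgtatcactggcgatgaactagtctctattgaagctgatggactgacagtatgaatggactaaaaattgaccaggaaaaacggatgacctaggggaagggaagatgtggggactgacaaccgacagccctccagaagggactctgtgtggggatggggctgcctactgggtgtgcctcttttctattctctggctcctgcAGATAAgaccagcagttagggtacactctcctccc
Pklr-202, before the downstream start: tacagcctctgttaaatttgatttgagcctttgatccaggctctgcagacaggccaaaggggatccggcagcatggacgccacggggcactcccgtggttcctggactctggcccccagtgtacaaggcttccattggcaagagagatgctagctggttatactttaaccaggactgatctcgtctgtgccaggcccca

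The upstream window held 1 match, which begins 35 bases before the start, and the downstream window held 0. Over all 32851 promoters of the table, 16.6% held at least 1 of these motifs in the 250 bases before the start. The 30 genes had 49 promoters in the table, of which 12 (24.5%, from 9 genes) held one. The E-box CACGTG was in 6.02% of all promoters and in 4 of the 49, and in neither Pklr window. A match describes the letters of the window and is not evidence of binding.

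Pkm, the other pyruvate kinase gene, lies on chromosome 9 and makes its M1 and M2 forms by including one or the other of 2 exons of equal length, 167 bases. M2 is the form known from embryonic and dividing cells and M1 from adult muscle and brain. The exons share 61.7% of their bases, and the 64 positions that differ are in capitals (mm10, plus strand).
Pkm-201, M2 exon, chr9:59675568-59675734: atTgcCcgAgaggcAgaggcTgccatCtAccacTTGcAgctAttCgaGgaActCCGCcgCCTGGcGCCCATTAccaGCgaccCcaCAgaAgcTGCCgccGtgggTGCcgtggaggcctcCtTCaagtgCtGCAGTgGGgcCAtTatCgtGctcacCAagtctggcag
Pkm-202, M1 exon, chr9:59675029-59675195: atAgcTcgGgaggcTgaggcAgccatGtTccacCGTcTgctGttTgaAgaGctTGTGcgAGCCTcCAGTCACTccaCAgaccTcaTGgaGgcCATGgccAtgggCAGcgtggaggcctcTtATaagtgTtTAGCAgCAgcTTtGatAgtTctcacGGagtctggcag

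All 30 genes reached 1 TPM in both libraries, against 53.9% of the 21474 protein-coding genes of the table. Together they made up 0.764% of all TPM in replicate 2 and 0.673% in replicate 1. Their median level was 73.4 TPM in replicate 2 and 61.7 TPM in replicate 1, and the median of their mean levels lay above 90.8% of the 12291 genes detected. Their fragment counts ran from 595 to 371116 per gene and library. The SD between the libraries was 8.88% of the mean for the median gene and 29.97% at most (Hk2).

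**Figure D1:**
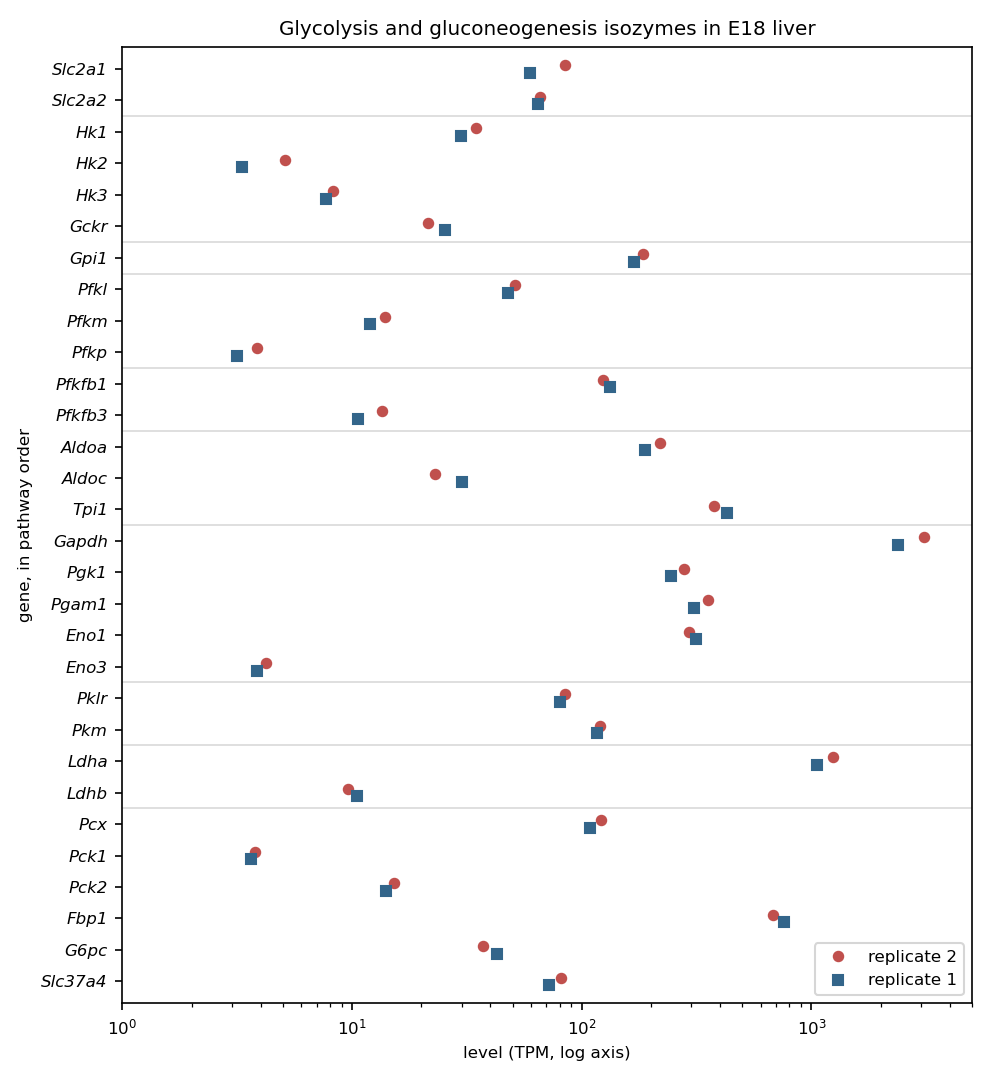
Level of each of the 30 genes in TPM (log axis) in pathway order from glucose transport at the top to gluconeogenesis at the bottom, with 1 point per library. Gapdh and Ldha are the highest in both libraries, with Fbp1 after them, and Pfkp, Pck1, Eno3 and Hk2 lie near the low end.

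The genes of both main glucose transporters were at close levels. Slc2a1 (GLUT1), the transporter of most tissues, had 84.3 TPM in replicate 2 and 59.3 TPM in replicate 1. Slc2a2 (GLUT2), the transporter of hepatocytes and pancreatic beta cells, had 65.9 TPM in replicate 2 and 64.2 TPM in replicate 1. The ratio of Slc2a1 to Slc2a2 was 1.28 in replicate 2 and 0.92 in replicate 1, so the order of the pair changed with the library. On the log2 scale of scaled counts Slc2a1 was 0.40 higher in replicate 2 (95% counting interval 0.38 to 0.43), and Slc2a2 differed by -0.07 (-0.10 to -0.04). Each gene has a single leading transcript, with 98.9% and 98.7% of the gene's TPM for Slc2a1-201 and 99.6% and 99.5% for Slc2a2-201 in replicates 2 and 1.

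Among the hexokinases analysed, which trap glucose in the cell by phosphorylation, Hk1 was the highest. Hk1, found in most tissues and in red cells, had 34.8 TPM in replicate 2 and 29.9 TPM in replicate 1. Hk3, known from myeloid blood cells, had 8.24 TPM in replicate 2 and 7.71 TPM in replicate 1. Hk2, the insulin-responsive form of muscle and fat, had 5.09 TPM in replicate 2 and 3.31 TPM in replicate 1. Hk1 exceeded Hk3 by 4.05 ± 0.24 times and Hk2 by 7.93 ± 1.56 times (mean ± SD, n = 2 libraries). Hk2 had the highest log2 ratio of the 30 genes between the libraries, 0.43 higher in replicate 2 on the log2 scale (0.35 to 0.52), from 2351 fragments in replicate 2 and 1954 in replicate 1. Hk3 differed by -0.04 (-0.11 to 0.04), an interval that includes 0, while the neutrophil markers were higher in replicate 2 as given above. Gckr, a regulatory protein of the hexokinase step in liver, had 21.4 TPM in replicate 2 and 25.3 TPM in replicate 1. It was 0.35 lower in replicate 2 (-0.41 to -0.30).

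Gpi1, which converts glucose phosphate to fructose phosphate, had 185 TPM in replicate 2 and 168 TPM in replicate 1. The committed step of glycolysis, phosphofructokinase, was led by its liver subunit. Pfkl (liver type) had 51.3 TPM in replicate 2 and 47.9 TPM in replicate 1, Pfkm (muscle type) 13.9 and 12.02 TPM, and Pfkp (platelet type) 3.85 and 3.16 TPM in the same order. Pfkl exceeded Pfkm by 3.84 ± 0.20 times and Pfkp by 14.2 ± 1.3 times (SD, n = 2), and the order of the 3 subunits was the same in both libraries. All 3 subunits had slightly more in replicate 2, with log2 ratios between 0.07 and 0.13.

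The Pfkfb enzymes make and break the small activator of phosphofructokinase, and the liver enzyme Pfkfb1 carries both activities under hormonal control. Pfkfb1 had 124 TPM in replicate 2 and 133 TPM in replicate 1. Pfkfb3, in which the activator-making activity prevails, had 13.5 TPM in replicate 2 and 10.6 TPM in replicate 1. Their ratio was 10.9 ± 2.4 (SD, n = 2), with 9.20 in replicate 2 and 12.6 in replicate 1. The genes moved apart between the libraries, with a log2 ratio of -0.22 (-0.24 to -0.19) for Pfkfb1 and 0.31 (0.26 to 0.36) for Pfkfb3. The size of the ratio depended on the source. It was 4.22 on fragments without scaling to transcript length, and 5.03 in the mm9 table, whose 2 columns gave 3.24 and 10.03.

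Aldoa, the aldolase of muscle and red cells, had 219 TPM in replicate 2 and 188 TPM in replicate 1. Aldoc, the aldolase best known from brain, had 22.9 TPM in replicate 2 and 30.2 TPM in replicate 1, and their ratio was 9.53 in replicate 2 and 6.25 in replicate 1. Aldoc was the gene furthest below 0 between the libraries, at -0.45 (-0.50 to -0.40), and of the 4 neural and astrocyte markers only Gfap was detected, at 3.62 TPM in replicate 2 and 3.68 TPM in replicate 1. Tpi1, which interconverts the 2 triose phosphates, had 377 TPM in replicate 2 and 431 TPM in replicate 1.

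Gapdh, which oxidises glyceraldehyde phosphate, had the highest TPM of the 30 genes, though not the highest mm9 value. It had 3092 TPM in replicate 2 and 2380 TPM in replicate 1. In fragments the order was the other way round, 346615 in replicate 2 and 371116 in replicate 1, and the effective length by which the authors divided was 868 nt in replicate 2 and 1003 nt in replicate 1. After scaling, the fragments differed by 0.07 (0.06 to 0.07) on the log2 scale, against 0.38 on TPM. A short annotated transcript, Gapdh-208 with 483 nt, was given 30.5% of the gene's TPM in replicate 2 and 20.7% in replicate 1. Pgk1, the first ATP-yielding enzyme, had 279 TPM in replicate 2 and 244 TPM in replicate 1, and Pgam1, the mutase after it, 354 and 308 TPM. Eno1, the general enolase, had 292 TPM in replicate 2 and 315 TPM in replicate 1, against 4.20 and 3.86 TPM for the muscle enolase Eno3. Eno1 thus exceeded Eno3 by 75.7 ± 8.5 times (SD, n = 2).

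**Figure D2:**
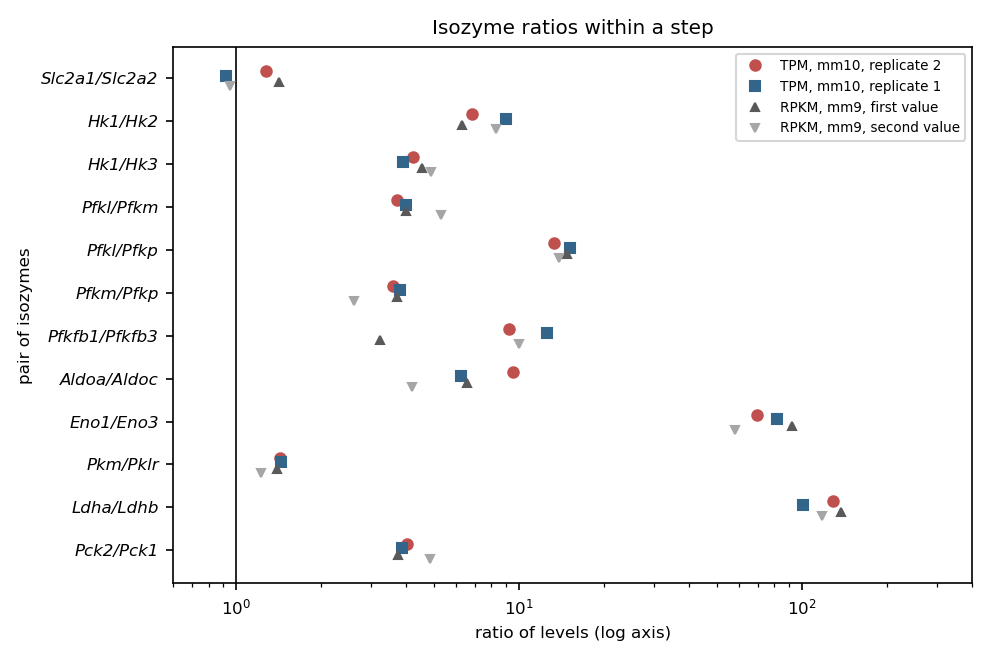
Ratio of levels (log axis) for 12 pairs of isozymes of the same step, with the first-named gene over the second, in replicate 2 and replicate 1 on mm10 TPM and for both values of the mm9 table. Each pair is named with the gene that was higher by mean ratio first. Of the 12 pairs, the first-named gene is higher in both libraries in 11, and Slc2a1 over Slc2a2 lies on either side of 1.

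Several of these genes have near-identical copies elsewhere in the genome, between which fragments had to be shared out. By a match of at least 300 bases at 95% identity or more, 9 of the 30 genes had a copy. Gapdh had 77, of which 71 were in the tables, and these were given 211 TPM in replicate 2 and 403 TPM in replicate 1, or 6.82% and 16.9% of Gapdh's own level. The copy Pgk1-rs7, a processed pseudogene, was given 47.0 TPM in replicate 2 and 73.1 TPM in replicate 1, and the pseudogene Pgam1-ps2 71.5 and 80.7 TPM. Adding the copies' fragments turned the log2 ratio of replicate 2 over replicate 1 to -0.03 for Gapdh (0.07 alone) and to -0.06 for Pgk1 (0.09 alone), and gave 0.06 for Pgam1 (0.09 alone). The direction between the libraries is therefore uncertain for Gapdh and Pgk1, and the levels of all 3 genes are uncertain. The mm9 table gives read density per length and depth (RPKM) in 2 columns that the labels do not tie to a library. Xist had 0.036 RPKM in the first column and 27.05 RPKM in the second. By the Xist fragments given above, this matches the first column to replicate 2 and the second to replicate 1. In these columns Gapdh had 26.99 and 28.8 RPKM against 217 and 198 RPKM for Ldha. Among the 30 genes it had rank 1 on mm10 TPM and rank 10 on mm9, and Pgk1 had ranks 7 and 16. Ldha and Fbp1 had ranks 2 and 3 on TPM and ranks 1 and 2 on mm9. How the mm9 table treats reads that match copies is not given in the sources used here.

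**Figure D3:**
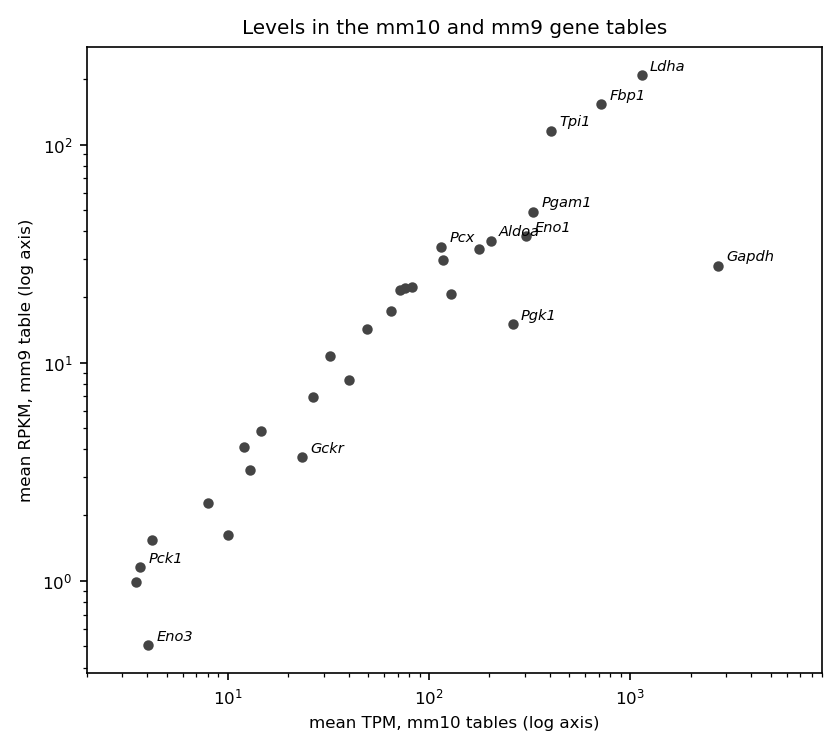
Mean TPM in the mm10 tables against mean RPKM in the mm9 table for the 30 genes, both on log axes, each point a gene. Gapdh and Pgk1 lie below the run of the other genes, at 27.9 and 15.1 RPKM.

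For pyruvate kinase, the last irreversible step of glycolysis, both genes were detected at similar levels. Pkm had 120 TPM in replicate 2 and 116 TPM in replicate 1, and Pklr 84.1 and 80.7 TPM, and the ratio of the pair on TPM was 1.43 in replicate 2 and 1.44 in replicate 1. On fragments without length scaling it was 1.44 in replicate 2 and 1.37 in replicate 1. Pkm-201, which carries the M2 exon printed above, was given 95.8% of the gene's TPM in both libraries. The reads over splice junctions, counted by the authors on mm9 for 2 columns that the sources do not tie to a library, gave the same order. Upstream of the alternative exons, 4398 reads joined the M2 exon and 196 the M1 exon, so that M2 had 95.7% (95.1 to 96.3, exact 95% interval, as for the other junction shares above 0). Downstream of them the M2 share was 82.3% (79.7 to 84.6), from 788 of 958 reads, a side with far fewer reads. The M1 exon was thus read at a low but nonzero level on both sides.

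For Pklr, the transcript estimates and the junction reads gave opposite orders of the 2 starts. Transcripts that begin at the upstream (R-type) exon were given 44.2% of the gene's TPM in replicate 2 and 34.2% in replicate 1. Those that begin with the first exon of Pklr-202 (L-type) were given 47.6% in replicate 2 and 61.4% in replicate 1, and led in both libraries. Over the first junctions printed above, 678 reads left the upstream exon (368 and 310 in the 2 columns), 31 left the exon of Pklr-203 and 4 that of Pklr-202 (2 and 2). The upstream start therefore held 95.1% of first-junction reads (93.2 to 96.6) and the L-type exon of Pklr-202 0.56% (0.15 to 1.43). The gap is wider than either the counting interval or the difference between the columns. The upstream first exon has 141 bases and those of Pklr-202 and Pklr-203 have 66 and 40, which leaves fewer positions for a read across the junction. Pklr-202 also ends 190 bases further downstream than Pklr-201. The median junction of Pklr-201 had 3419 reads, more than all 713 reads over the first junctions. The part of these in the gap was not tested.

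**Figure D4:**
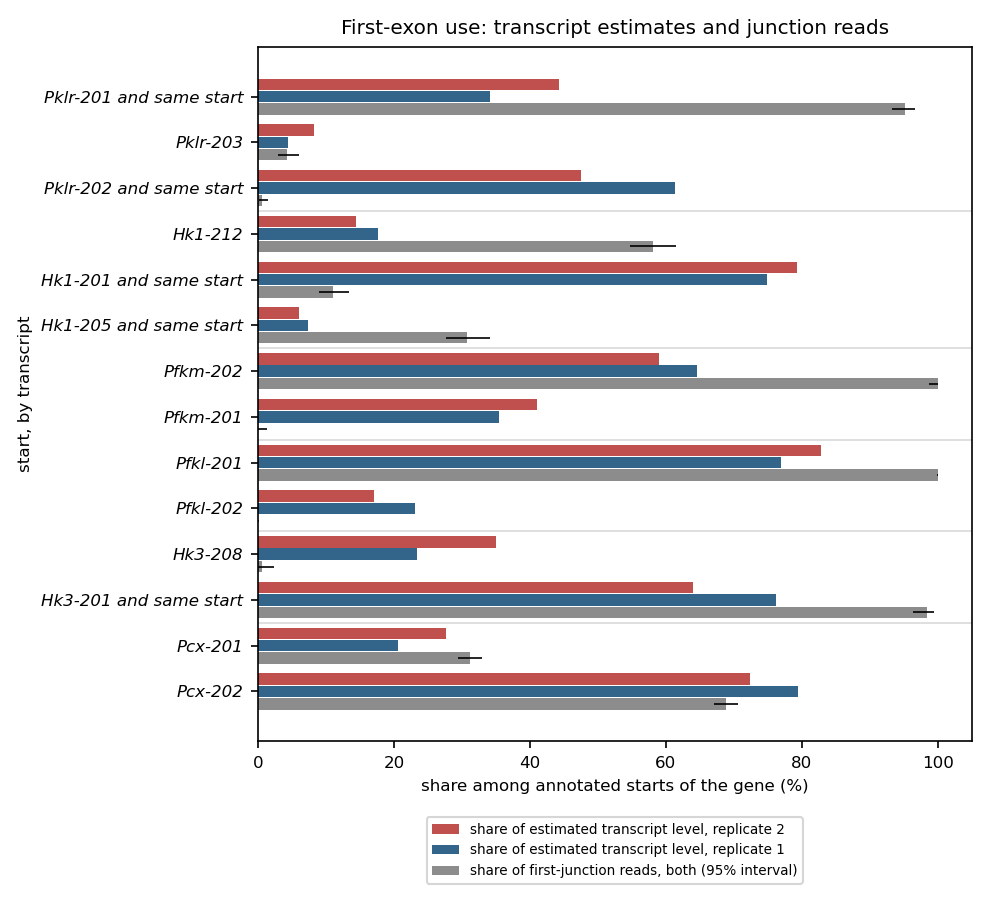
Share of each annotated start among the starts of its gene, for 6 genes, as estimated transcript level in replicate 2 and replicate 1 and as reads over the first splice junction on mm9, both columns together, with the exact 95% counting interval. Estimates and reads put different starts first for Pklr and Hk1, and give similar shares for Pcx. Transcripts are grouped by the first junction they have in the mm9 annotation.

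Hk1 showed a gap of the same kind. Its starts on the minus strand of chromosome 10 join a shared exon, and the junctions are shown because reads and estimates ranked the starts differently (capitals mark the shared exon, mm10).
Hk1-212, first exon chr10:62327403-62327767: tgtcctgtgcagaagATTGATAAGTATCTG
Hk1-202, first exon chr10:62340013-62340542: gaccaagtcaaaaagATTGATAAGTATCTG
Hk1-205, first exon chr10:62342501-62342722: gcctgggaggccaggATTGATAAGTATCTG

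In the mm9 annotation Hk1-201 and Hk1-202 share a first junction, while in mm10 Hk1-201 begins further upstream, at chr10:62358362. Hk1-202 was given 63.2% of the TPM in replicate 2 and 59.9% in replicate 1, and the 2 transcripts together 79.0% and 74.7%. Their mm9 junction had 91 of 822 first-junction reads, or 11.1% (9.01 to 13.4). The start of Hk1-212, an annotated transcript of 896 nt, had 478 reads, or 58.2% (54.7 to 61.5), against 14.4% of TPM in replicate 2 and 17.7% in replicate 1. The start of Hk1-205 had 253 reads, or 30.8% (27.6 to 34.1), against 6.01% of TPM in replicate 2 and 7.33% in replicate 1. All 3 starts were thus in use in this tissue by reads, and none held more than 61.5% within its interval.

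Pfkm has an upstream and a downstream start, which join the same exon with these junctions (capitals mark that exon, mm10, plus strand of chromosome 15).
Pfkm-202, first exon chr15:98092589-98092665: gaggcgatgagccagAGTGGATCATGACCC
Pfkm-201, first exon chr15:98108466-98108611: agctaaaactacaagAGTGGATCATGACCC

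The downstream start, Pfkm-201, was given 41.1% of TPM in replicate 2 and 35.5% in replicate 1, but had 0 of 272 first-junction reads, which allows a share of up to 1.10% when a count of 0 is taken to allow 3 reads. All 272 reads left the upstream exon of Pfkm-202. Likewise Pfkl-202, a transcript of 583 nt given 16.7% and 22.6% of TPM in replicates 2 and 1, had 0 of 1967 reads, which by the same limit allows up to 0.153%. Hk3-208 was given 32.4% in replicate 2 and 22.8% in replicate 1 and had 2 of 308 reads, or 0.65% (0.08 to 2.33). For Pcx the 2 sources were closer, with 68.8% of 2625 reads (67.0 to 70.6) at the start of Pcx-202, which was given 72.4% of TPM in replicate 2 and 79.4% in replicate 1. In all, the start of the leading transcript could be set against reads in 17 genes, and it was the most read start in 15, the exceptions being Pklr and Hk1. In several of the 15 that start already held nearly all of the estimated level among the starts compared, so little could differ. Examples are Gapdh (99.8%), Ldha (99.6%) and Fbp1 (99.2%). For Gapdh the start held only 60.8% of the gene's whole TPM in replicate 2 and 76.7% in replicate 1. Transcripts without a compared start, such as Gapdh-208, were left out of the 99.8%. Aldoc and Eno3 were not compared, because their leading transcript's first intron is internal to another transcript. Slc2a2, Tpi1, Pgk1, Pkm and Pck1 had no other first junction left to compare. The leading transcript of Pfkfb3, Pfkfb3-220, was given 43.4% of TPM in replicate 2 and 41.4% in replicate 1. It had no first junction in the mm9 annotation, so its start was not checked against reads.

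Of the 25 genes with 2 or more annotated transcripts, 7 had a leading transcript with at least 90% of TPM in both libraries, against 24.1% of the 8780 such genes at 1 TPM or more. The leading transcript was the same in both libraries in 25 of 25. Its share differed by over 10 points in 5 of the 25, against 8.94% of such genes overall. Those 5 were Pck1 (74.4% in replicate 2 and 94.0% in replicate 1), Gapdh (60.7% and 76.5%), Pklr (45.7% and 59.2%), Eno3 (45.5% and 58.6%) and Tpi1 (92.5% and 81.9%). Pck1 and Eno3 rested on the fewest fragments of the 30 genes, 1081 and 595 in replicate 2 and 1356 and 681 in replicate 1, and the shares carry no stated error.

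Of the lactate dehydrogenase genes, Ldha was far above Ldhb. Ldha, which favours making lactate from pyruvate, had 1236 TPM in replicate 2 and 1053 TPM in replicate 1. Ldhb, the heart subunit, had 9.57 TPM in replicate 2 and 10.5 TPM in replicate 1. The ratio was 129 in replicate 2 and 100.6 in replicate 1. Ldha-202 held 99.4% of the gene's TPM in replicate 2 and 99.2% in replicate 1.

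The enzymes of gluconeogenesis differed widely in level, with Fbp1 the highest and Pck1 the lowest. Pcx, the mitochondrial carboxylase that starts the path, had 122 TPM in replicate 2 and 108 TPM in replicate 1. Pck1, the cytosolic carboxykinase known for its steep rise around birth, was low, with 3.77 TPM in replicate 2 and 3.62 TPM in replicate 1. The mitochondrial carboxykinase Pck2 had 15.2 TPM in replicate 2 and 14.0 TPM in replicate 1, 3.95 ± 0.11 times the level of Pck1 (SD, n = 2). Fbp1, the bisphosphatase that reverses the phosphofructokinase step, had 679 TPM in replicate 2 and 761 TPM in replicate 1, the highest after Gapdh and Ldha. G6pc, the catalytic subunit that frees glucose, had 37.3 TPM in replicate 2 and 42.9 TPM in replicate 1. Slc37a4, which carries its substrate into the endoplasmic reticulum, had 80.9 TPM in replicate 2 and 72.3 TPM in replicate 1. Pck1 thus lay above 24.6% of all detected genes, G6pc above 84.9% and Fbp1 above 98.9%. Between the libraries, Fbp1 and G6pc were lower in replicate 2 by log2 ratios of -0.27 (-0.29 to -0.26) and -0.31 (-0.35 to -0.28), and Pcx, Pck2 and Slc37a4 stood between 0.01 and 0.06. Pck1 stood at -0.16 (-0.28 to -0.05) on scaled counts but at 0.06 on TPM.

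Across the 30 genes, 16 had a higher scaled count in replicate 2 and 14 a lower one, and the median log2 ratio was 0.03, against 0.00 over the 14955 genes that averaged 50 fragments or more. None of the 30 passed 1.5-fold, with either TMM or DESeq2 size factors, against 5.71% of those 14955 genes. Beyond a ratio of 5 to 4, Slc2a1 and Hk2 were higher in replicate 2 (2 of 30, against 7.54% of genes) and Gckr and Aldoc lower (2 of 30, against 10.1%). Pfkfb3 at 0.31 and G6pc at -0.31 lay just inside that limit. The counting interval left out 0 in 27 of the 30 genes, with Hk3, Eno3 and Pck2 the others, against 59.4% of the 14955 genes. The 2 shares are not matched for depth, which narrows an interval. Each of the 30 genes had at least 595 fragments per library, whereas the 14955 genes averaged 50 or more. The counting intervals cover counting error only, not the spread between embryos or preparations. Scaling by the added spike-in RNA moved the median of all genes to 0.54 and put 30 of 30 above 0 and 14 beyond 1.5-fold, against 41.0% of all genes under that scaling, while 16 of 30 lay above that median. On TPM the median of all genes moved to 0.11, 22 of 30 lay above 0 and Hk2 alone passed 1.5-fold, against 6.91% of genes.

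**Figure D5:**
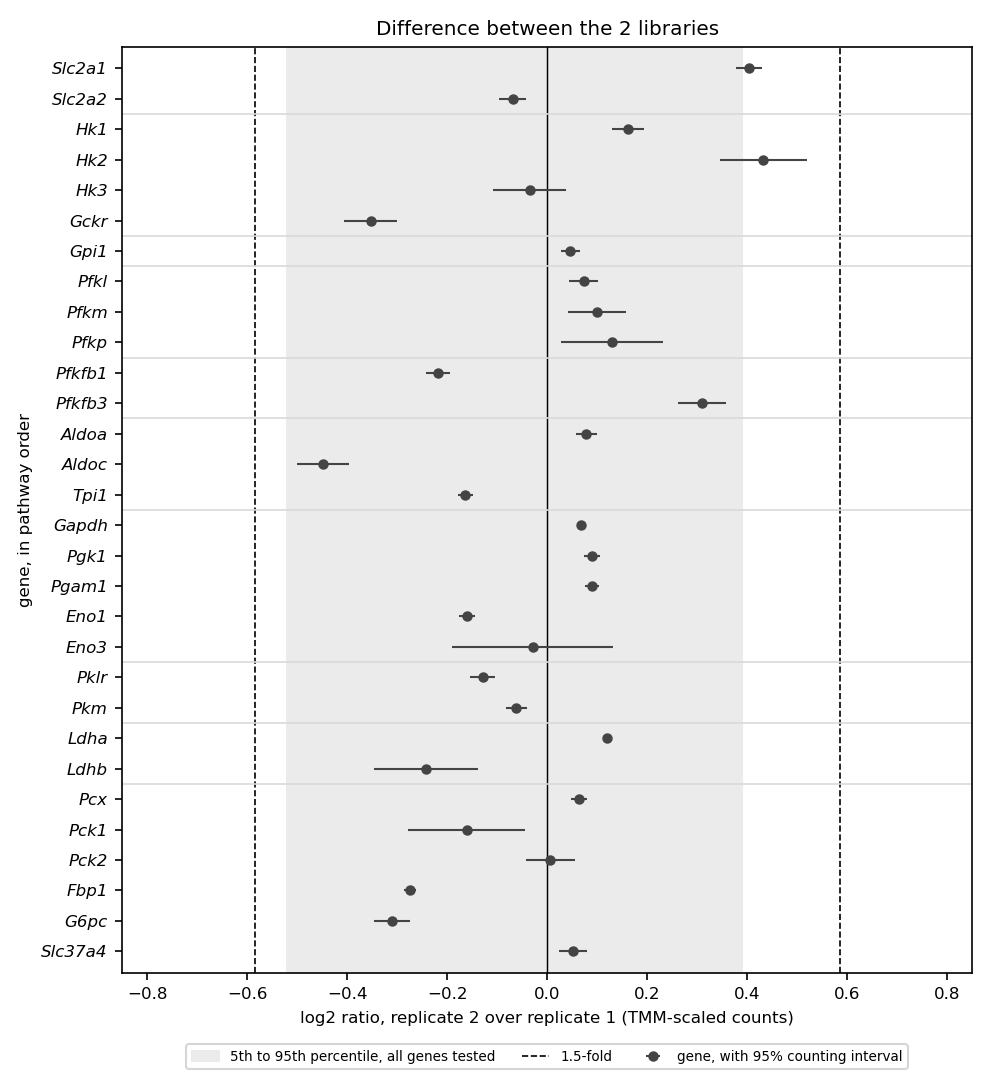
Log2 ratio of replicate 2 over replicate 1 for each gene in pathway order, with the exact 95% counting interval as a bar, the 5th to 95th percentile of all genes tested in grey and 1.5-fold as dashed lines. All 30 points lie inside the dashed lines, with Hk2 furthest right at 0.43 and Aldoc furthest left at -0.45.

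A second list held 34 other genes of the same paths and their neighbours, of which 30 were detected and 32 averaged 50 fragments or more. Of these 32, 12 were higher and 20 lower in replicate 2, and the median log2 ratio was -0.01. Beyond 1.5-fold were 2 of the 32, both higher in replicate 2, against 5.71% of the 14955 genes. They were Hkdc1 at 0.60 (0.52 to 0.68) and Eno2 at 0.61 (0.16 to 1.08). Eno2 rested on 97 fragments in replicate 2 and 71 in replicate 1. The 5 highest were Mpc1 and Mpc2, the subunits of the mitochondrial pyruvate carrier, the malate dehydrogenases Mdh1 and Mdh2, and Bpgm, the red-cell enzyme that makes the regulator of haemoglobin's oxygen affinity. Mpc1 had 363 TPM in replicate 2 and 469 TPM in replicate 1, Mdh1 219 and 226 TPM, and Mdh2 197 and 188 TPM. Mpc2 had 131 TPM in replicate 2 and 165 TPM in replicate 1, and Bpgm 128 and 121 TPM.

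The second list also held further isozymes of the steps above. Among transporters, Slc2a3 had 8.56 TPM in replicate 2 and 7.06 TPM in replicate 1, and Slc2a4, the insulin-responsive transporter, 8.11 and 7.66 TPM. Hkdc1, a hexokinase-like protein, had 8.50 TPM in replicate 2 and 4.84 TPM in replicate 1, and Adpgk, which phosphorylates glucose with ADP, 27.5 and 19.5 TPM. Pfkfb2 had 5.49 TPM in replicate 2 and 4.62 TPM in replicate 1, and Pfkfb4 3.76 and 3.02 TPM. G6pc3, the broadly expressed relative of G6pc, had 10.03 TPM in replicate 2 and 8.39 TPM in replicate 1, and Ldhd, a dehydrogenase of the D form of lactate, 3.23 and 4.11 TPM. The muscle forms Pgam2 and Fbp2, the neuronal enolase Eno2 and the testis form Ldhc stayed below 1 TPM in both libraries.

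Of 12 regulators of these genes, all 12 were detected. Beyond 1.5-fold was 1 of the 12, against 5.71% of the 14955 genes that averaged 50 fragments or more. It was Onecut1, a hepatocyte factor singled out after its values were seen. Onecut1 had 11.5 TPM in replicate 2 and 6.44 TPM in replicate 1 and a log2 ratio of 0.70 (0.64 to 0.76). The 4 highest were Cebpa, Klf1, Hnf4a and Cebpb. Cebpa, a liver and myeloid factor, had 104 TPM in replicate 2 and 81.0 TPM in replicate 1. Klf1, the erythroid factor, had 74.2 TPM in replicate 2 and 84.99 TPM in replicate 1. Hnf4a, the hepatocyte factor, had 66.9 TPM in replicate 2 and 59.8 TPM in replicate 1, and Cebpb 37.1 and 38.0 TPM.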

How the data were processed

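The authors deposited, for each library on mm10 with GENCODE M4 annotation per the deposited notes, estimated counts (expected counts) and TPM per gene and transcript, FPKM, and each transcript's share of its gene's TPM as a percent. Deposited mm9 files give 2 RPKM values per gene and whole-number counts of junction reads. Which aligner and quantifier were used is not given in the sources used here. Symbols and mm10 positions came from GENCODE M21. Entries other than mouse genes, mostly spike-ins, held 2.13% of the deposited counts in replicate 2 and 2.83% in replicate 1.

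Expected counts were rounded, scaled by TMM (edgeR 4.0.16, R 4.3.3), and compared as log2 ratios of replicate 2 over replicate 1 with 0.5 added. The ratio step was run on simulated counts with counting error only and with the scaling factors already known. That run therefore tested neither the scaling nor the spread between libraries. DESeq2 1.42.0 size factors, TPM, spike-in and total scaling were alternatives. Counting intervals are exact 95% binomial (Clopper-Pearson, scipy 1.17.1), and a count of 0 was given a limit of 3 reads. Copies were sought with blastn 2.17.0. A start's reads are those over its annotated first intron, unless that intron is internal to another transcript. No p-value was computed. The 30 genes, the other lists and the limits were chosen with earlier results of these data known. All 30 genes are named, with the members of the second list by level or shared step and the 4 highest regulators. Nothing in the labels says that the libraries came from separate litters.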

Additional observations from a re-analysis of the deposited data

How the results depend on the processing

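All 30 genes were also detected on FPKM, on TPM rescaled to mouse genes, at 0.5 TPM and in each library alone, 27 at 1 RPKM in both mm9 values and 26 at 5 TPM. Each of the 12 pairs was named with the gene that was higher by mean ratio first, so that order is not itself a result. Averaged over the 2 libraries or columns, the order held in 12 of 12 pairs on counts without length scaling and on mm9. Slc2a1 over Slc2a2 was nonetheless 0.93 on counts in replicate 1 and 0.95 in the second mm9 column. On TPM the order held in 11 to 12 pairs with 1 library left out, with Slc2a1 over Slc2a2 at 1.28 without replicate 1 and 0.92 without replicate 2. The number of genes above 0 between the libraries was 16 with DESeq2 size factors and with 0 or 5 added, 18 with mouse gene totals, 22 on TPM and 30 with spike-in scaling. The number beyond 1.5-fold was 0, also with no count minimum, at 10 fragments, and at 2-fold, but 1 on TPM, 14 with spike-in scaling and 4 beyond a ratio of 5 to 4. Adding the counts of near-identical copies, an alternative chosen after seeing the data, turned Gapdh to -0.03 and Pgk1 to -0.06. Spike-in scaling shifts every gene by the same amount. Of 25 genes, a leading transcript with at least 90% was found in 7, in 8 with either library left out, and in 12 by share of expected count. By junction reads, the start of the leading transcript, which other transcripts can share, held at least 90% in 13 of 17 genes. The cause of those differences was not tested. The mm9 log2 ratio per gene was not run, because the labels do not tie those columns to a library. The first mm9 RPKM value was above the second in 21 of the 30 genes. The median of first over second, without further scaling, was 1.49 for the 30, against 1.41 for 11930 detected genes. The Xist values given above match the first column to replicate 2 and the second to replicate 1. The number of genes beyond 1.5-fold was not counted on mm9. No paired analysis was possible because there is only 1 group. With 2 libraries, an SD rests on a single difference, and genes with few fragments, such as Eno3, have wide counting intervals.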
